A study of Homo sapiens with 4 samples.

Results

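The m7G peaks described here are those that cross exactly 1 splice junction: each was listed as 2 blocks on the same strand, and the gap between the blocks was taken as the intron. N7-methylguanosine (m7G) was enriched with an antibody from poly(A) RNA of untreated U2OS cells, an established human osteosarcoma line, and every group carries that same line and no treatment. The series has 2 input and 2 m7G immunoprecipitated (IP) samples, and each IP sample has its own table of peaks, in which the authors gave a position, a fold enrichment over input and a p-value for every peak. In IP replicate 1, 923 of 4326 peaks had 2 blocks (21.3%, Wilson 95% interval 20.1 to 22.6), and in IP replicate 2, 1111 of 4862 did (22.9%, 21.7 to 24.1). They named 844 and 1006 genes. The rule used the number of blocks alone, and no fold, intron length, position or recurrence between replicates entered it. A peak has 2 blocks only where it crosses a junction, so its position and the recurrence of its gap are not independent of the rule. Nothing in the labels tells whether the IP replicates were separate cultures, so their spread can be a technical one. Read counts are not part of the tables, which leaves the depth of each peak unknown. Intervals on shares cover counting error only, and no test was run over peaks, which are not replicates of a condition.

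Introns are cut from the primary transcript by the spliceosome, and the exons on both sides are joined. An intron nearly always begins with GT, the 5′ splice site or donor, which base pairs with U1 snRNA together with the bases around it, and ends with AG, the 3′ splice site or acceptor. In human genes the intron nearest the 5′ end is often the longest. An m7G cap sits at the 5′ end of every mRNA, and m7G has also been mapped inside mRNA. A peak of 2 blocks describes enrichment over a stretch of spliced RNA that is not continuous in the genome.

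The gaps were first checked against sequence, because a gap in a peak list need not be an intron. Both tables together held 1664 distinct gaps. RefSeq promoter windows of GRCh38.p14, which run from 250 bases before to 50 after each gene start, covered the 5′ splice site of 110 of them. Of these 110, 106 began with GT on the transcript strand (96.4%) and the other 4 with GC, a rarer donor. GT stood at 4.62% of all positions in the 35116 windows and GC at 8.70%. The windows also covered 18 acceptors, and 18 of 18 ended with AG, against 7.26% of all window positions. In the 102 donors with enough bases on both sides, the last exon base was G in 91 (89.2%) and the fifth intron base was G in 85 (83.3%), both positions that pair with U1. Donors inside promoter windows lie mostly close to a gene start, so this check covers little of the rest of the gene.

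The following donors are those of the 5 introns with the highest folds among those present in both replicates, beginning with GT and with all 30 bases shown inside a window. MPND had a higher lower fold than the last 4 (11.2 and 11.3), but its window did not hold all these bases. Each line has 10 exon bases and 20 intron bases, 5′ to 3′, and the capitals mark the first 2 intron bases. PABPN1, which encodes the nuclear poly(A)-binding protein, had folds of 18 in replicate 1 and 14.5 in replicate 2 (chr14:23321811-23321840, plus strand). XYLT1, the xylosyltransferase that starts proteoglycan chains, had 13.6 and 10 (chr16:17470414-17470443, minus strand). TLK2, a tousled-like kinase of chromatin assembly, had 9.96 and 9 (chr17:62479281-62479310, plus strand). ICE2, a subunit of the little elongation complex, had 6.61 and 6.87 (chr15:60478983-60479012, minus strand), and GKAP1, an anchor of a cyclic GMP-dependent kinase, had 6.66 and 6.47 (chr9:83817497-83817526, minus strand). The span of BCL2L2-PABPN1, a readthrough gene, also covers the PABPN1 peak.
PABPN1: tgaggacccgGTgagggaaggagggcgagc
XYLT1: ccgggctctgGTaagatgccctttcggctc
TLK2: gcggcggcagGTgagaggctgagccccggg
ICE2: ggaccatgagGTgggcggaaaggctgtgtt
GKAP1: gggaggcccgGTgagtacgcggaggcgggc

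The 4 GC donors are shown because they are the exceptions among the 110. Only that of CSAD, an enzyme of taurine synthesis, came from an intron found in both replicates, with folds of 9.25 and 7 (chr12:53180712-53180741, minus strand). The span of ZNF740 also covers the CSAD peak. The others were seen in 1 replicate each: CTDNEP1, a nuclear envelope phosphatase, at 1.76 in replicate 1 (chr17:7251779-7251808, minus strand), MDFI, an inhibitor of myogenic factors, at 2.64 in replicate 1 (chr6:41638366-41638395, plus strand), and SDC1, the proteoglycan syndecan 1, at 2.05 in replicate 2 (chr2:20225242-20225271, minus strand). The capitals again mark the first 2 intron bases. The acceptors of CTDNEP1 and SDC1 were also covered, and both were AG.
CSAD: cgggaccgagGCaagtttacaaacaccaac
CTDNEP1: cgctctgcagGCccgttctccgctgccgcg
MDFI: gactgagaagGCgaggagggggcggggaga
SDC1: agccaagcagGCaagaaccttaggagcggg

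Some of the introns under these peaks hold microRNA genes. Of the 1562 hairpins in the RefSeq table of GRCh38.p14, 13 lay inside the introns of 2-block peaks, 13 of 13 on the strand of the host gene. In 3 introns the hairpin ended on the last intron base, so that the 3′ end of the hairpin is also the acceptor, and the other 10 hairpins ended at least 684 nt upstream of it. A hairpin whose end is set by splicing at such an acceptor is called a tailed mirtron, and whether that holds for these 3 was not tested. The hairpins are shown with the shared AG in capitals: MIR6747 in EEF1G, which encodes elongation factor 1 gamma (chr11:62567011-62567071, minus strand), MIR6738 in ARHGEF2 (chr1:155951273-155951336, minus strand), and MIR6515 in CALR, which encodes the chaperone calreticulin (chr19:12940484-12940540, plus strand). The EEF1G junction was covered in both replicates with like folds, 2.46 and 2.48, and identical peak edges. The ARHGEF2 junction was a gap in replicate 2 alone, at 3.33. The CALR junction was crossed by a 2-block peak in replicate 1, at 1.31, and in replicate 2 it was a gap of a peak with more blocks.
MIR6747: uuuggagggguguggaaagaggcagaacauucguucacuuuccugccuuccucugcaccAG
MIR6738: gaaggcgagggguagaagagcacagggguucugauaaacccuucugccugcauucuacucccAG
MIR6515: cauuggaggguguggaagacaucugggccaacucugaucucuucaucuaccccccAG

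The mature 3′ arms of MIR6738 and MIR6515 run to that same last base, and are given with the seed, bases 2 to 8, in capitals. Their seeds differ, and the acceptor lies outside the seed in both.
miR-6738-3p: cUUCUGCCugcauucuacucccag
miR-6515-3p: uCUCUUCAucuaccccccag

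Further hairpin hosts recurred in both replicates. They were ZFR, a zinc finger RNA-binding protein with MIR579 in a 4721-nt intron (folds of 2.10 and 1.84), and AP1S1, a clathrin adaptor subunit with MIR4653 in a 1322-nt intron (2.16 and 1.85). The peaks of these hosts lie on the spliced exons, and the tables do not measure the microRNAs.

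Intron lengths spanned more than 3 orders of magnitude. The median was 1158 nt in replicate 1 (quartiles 324.5 and 4617.5) and 1303 nt in replicate 2 (quartiles 365.5 and 4144.5), a mean of 1230.5 ± 103 (SD, n = 2). The shortest gap was 69 nt in replicate 1, on B4GALNT4, a glycosyltransferase, and 65 nt in replicate 2, on RECQL4, a DNA helicase. No gap of a 2-block peak was under 60 nt in either replicate. The longest was 126942 nt, on TRIO (23.1-fold, replicate 1), and 125010 nt in replicate 2, on LIMS1. Introns over 10000 nt made up 15.1% and 14.2% of the peaks, and introns under 100 nt 6.61% and 6.03%. Peaks of 3 or more blocks had shorter gaps, with medians of 470 and 652 nt over 1197 and 1622 gaps. The shortest of those gaps was 1 nt in both replicates, so not every gap in that set need be an intron.

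**Figure D1:**
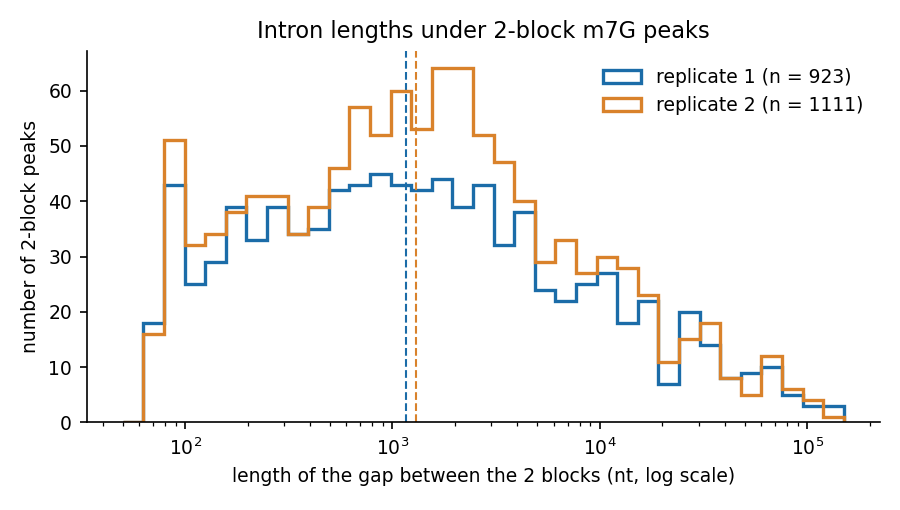
Number of 2-block peaks (y axis) by length of the gap between their blocks (x axis, nt, log scale) in IP replicate 1 (blue) and replicate 2 (orange), with dashed lines at the medians of 1158 and 1303 nt. Both replicates have a narrow group of gaps just under 100 nt and a broad group around the median.

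The longest introns found in both replicates lay on genes with moderate to high folds. LIMS1, the focal adhesion adaptor PINCH1, had a 125010-nt intron (chr2:108534595-108659604) with folds of 3.94 and 4.11. XYLT1 had 112383 nt (chr16:17358051-17470433), C1orf21 90017 nt (chr1:184387369-184477385, 8.36 and 9.09), and SFMBT1, a chromatin protein with MBT repeats, 76557 nt (chr3:52969259-53045815, 6.55 and 6.67). PKP4, a plakophilin of cell junctions, had 75961 nt (chr2:158457219-158533179) and higher folds, 22.2 and 30. The shortest shared introns were 73 nt in ROGDI (14.4 and 7.20) and in NOC2L, an inhibitor of histone acetylation (1.94 and 2.71). They were followed by 76 nt in PPP1CA, a catalytic subunit of protein phosphatase 1 (1.57 and 1.66), 76 nt in BOP1, a ribosome assembly factor (1.92 and 1.78), and 77 nt in HES6, a basic helix-loop-helix factor (5.51 and 4.85). Apart from ROGDI and HES6 these short introns were crossed by weak peaks.

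The next question was whether the same junctions were crossed in both replicates. A peak counted as shared if any base of its blocks lay in the blocks of a same-strand peak of the other replicate. In replicate 1, 608 of 923 2-block peaks were shared (65.9%, Wilson 62.8 to 68.9), beside 62.6% of all peaks and 58.1% of 1-block peaks. In replicate 2, 553 of 1111 were (49.8%, 46.8 to 52.7), beside 55.9% of all peaks and 54.8% of 1-block peaks. The 2-block peaks thus lay above the share over all peaks in replicate 1 and below it in replicate 2, and no common direction was seen. In replicate 1 the intron of 481 peaks (52.1%) was also a gap of some peak in replicate 2, 127 peaks were shared without that gap, and 315 overlapped nothing. In replicate 2 the numbers were 429 (38.6%), 124 and 558. Among shared peaks the gap recurred for 79.1% and 77.6%. Where the shorter block measured 60 nt or more it recurred for 87.4% and 87.3%. Where that block measured 10 to 29 nt it recurred for 63.9% and 66.9%, and where it was under 10 nt for 70.7% and 73.3%. Junctions far from both peak edges thus recurred most often in both replicates.

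Where a mutually best pair had 2 blocks in both replicates, the intron was nearly always the same. This held for 358 of 369 pairs (97.0%, Wilson 94.7 to 98.3), in which the gap had the same start and end to the base, and allowing ends up to 10 nt apart left the share at 97.0%. The tables do not state whether gaps were read from the reads or taken from annotated exons, and this was not tested. Summed block lengths, which leave the gap out, were a multiple of 30 nt or 1 more in 76.3% of 2-block peaks in both replicates. The grid of peak edges was thus counted along the joined blocks. If taken from exons, overlapping peaks over 1 junction share its gap by construction, so the identity to the base is a description and no measure of precision. The outer edges were freer: the 5′ edge was the same in 144 of the 358 pairs, the 3′ edge in 159, and both in 71. The other 11 pairs crossed different junctions of the same gene and shared neither end of the gap. Among them were EIF4G1, which bridges the cap and the ribosome (eIF4G, introns of 232 and 137 nt, folds of 2.79 and 2.57), MAP4K4, a Ste20-type kinase (2857 and 11665 nt, 2.09 and 2.06), and CFL1, which encodes cofilin (1854 and 204 nt, 1.26 and 1.30). These 3 genes were chosen after their values were seen. A further 113 2-block peaks of replicate 1 were paired with a 1-block peak and 109 with a peak of 3 or more blocks.

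The 358 pairs lay on 345 genes, and their folds were alike in both replicates. The median was 3.66 in replicate 1 and 3.50 in replicate 2, and the median absolute difference between replicates was 0.28 in log2 fold, which is a factor of 1.22. For 95% of these pairs the difference was under 1.17, a factor of 2.25. The fold was higher in replicate 1 in 202 pairs, higher in replicate 2 in 154 and equal in 2. Across the 358 pairs, which share their libraries, Spearman's rank correlation was 0.888. Both folds were 4 or more in 138 pairs (38.5%), beside 42.9% of all 2639 mutually best pairs and 51.0% of the 1559 pairs with 1 block in both.

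The 10 pairs with the highest lower fold of both replicates mostly had long introns and mostly lay at gene starts. The highest was TMEM94, a transmembrane protein of the endoplasmic reticulum, with 30.8 and 50 across a 15048-nt intron (chr17:75456752-75471799). SCAF8, which binds the tail of RNA polymerase II and holds back early polyadenylation, had 24.7 and 23.3 across 244 nt (chr6:154733551-154733794), with identical edges in both replicates. PKP4 followed, then SAMD4B, a Smaug-family repressor of translation, with 23.4 and 22 across 5711 nt (chr19:39342577-39348287). PPP1CC, the gamma catalytic subunit of protein phosphatase 1, had 18.5 and 27.5 across 10751 nt (chr12:110731902-110742652). The 5′ block was the longer one in these 5 pairs, and in PPP1CC 3 nt lay beyond the junction.

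MBD2, which binds methylated CpG, had 17.6 and 17.5 across 18860 nt (chr18:54205158-54224017), and log10 p-values of -68.4 and -92.5. SDC3, the proteoglycan syndecan 3, had the same folds, 17.6 and 17.5, across 29708 nt (chr1:30878741-30908448). DAZAP1, an RNA-binding protein that regulates splicing, had 17.8 and 17 across 9697 nt (chr19:1407803-1417499). MANF, a secreted factor induced by stress of the endoplasmic reticulum, had 24.7 and 15 across 771 nt (chr3:51385437-51386207), and RNF121, a membrane ubiquitin ligase, 111 and 15 across 31625 nt (chr11:71929125-71960749). Of these 10 pairs, 8 had an intron over 5000 nt, 10 had the longer block on the 5′ side in both replicates, and 9 had their 5′ edge within 200 nt of the annotated gene start in both. SDC3 was the exception, at 1102 nt in both. Of all 358 pairs, 163 (45.5%) had that edge within 200 nt of the start in both replicates. The median intron was 1058 nt over all 358 pairs and 1785 nt over those 163. The 5′ block was the longer one in 61.2% of all 2-block peaks in replicate 1 and 57.0% in replicate 2. The span of LOC124907900 also covers the PKP4 peak.

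A few pairs differed widely between replicates. PCNP, a nuclear protein rich in PEST sequence, had 74 in replicate 1 and 3.90 in replicate 2, although the p-values were alike (log10 p of -15.0 and -17.8). RNF121, above, differed by 2.89 on the log2 scale. ETFB, a subunit of the electron transfer flavoprotein of mitochondria, had 1.75 and 11.2, and its 5′ block measured 1 nt in replicate 1 and 149 nt in replicate 2. High folds often fell on repeated values: whole multiples of 18.5 in replicate 1 were held by 17 of the 33 2-block peaks at or above that value, and multiples of 10 in replicate 2 by 21 of 71. Over peaks of any block number the counts were 134 of 253 and 148 of 509, so this was not particular to 2-block peaks. Among the 358 pairs 16 had such a whole multiple in either replicate and 1 in both. TMEM94, PKP4 and XYLT1 had it in replicate 2, and PPP1CC, RNF121 and PCNP in replicate 1. Values that recurred without being a whole multiple were not counted. Examples are 24.7 in replicate 1 for SCAF8, MANF and TEAD2, and 17.5 in replicate 2 for MBD2 and SDC3. The 16 pairs are therefore not all those at a recurring value.

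**Figure D2:**
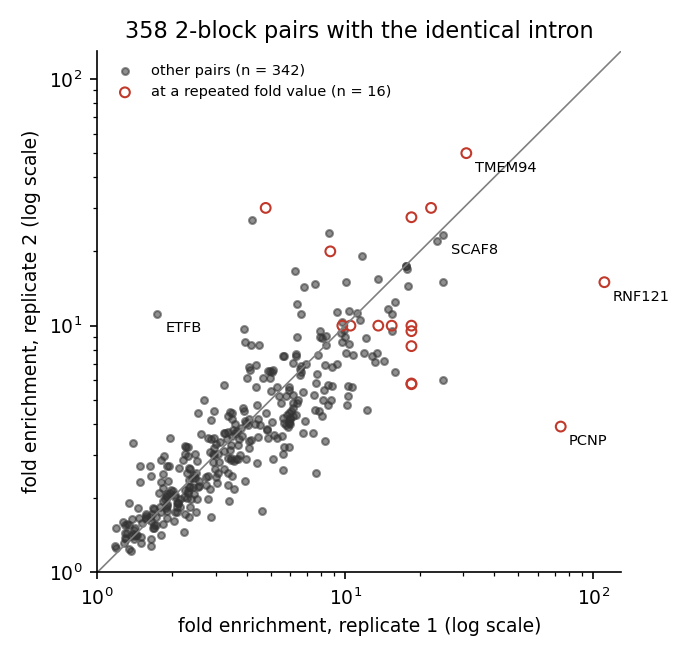
Fold enrichment over input in replicate 1 (x axis) against replicate 2 (y axis), both on log scales, for the 358 pairs of 2-block peaks with the identical intron; the grey line marks equal folds. Open red circles are the 16 pairs at a whole multiple of 18.5 in replicate 1 or of 10 in replicate 2. Among them are RNF121 (111 and 15) and PCNP (74 and 3.90), and most other pairs lie close to the line.

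Distances were measured from the 5′ edge of the peak to the annotated start of its gene, and near the start means no more than 200 nt upstream or downstream of it. In replicate 1, 333 of 920 matched 2-block peaks were near the start (36.2%, Wilson 33.2 to 39.4), beside 30.4% of all peaks and 29.4% of 1-block peaks. In replicate 2, 331 of 1108 were (29.9%, 27.3 to 32.6), beside 26.7% of all peaks and 26.1% of 1-block peaks. The share was higher than over all peaks in both replicates. Peaks of 3 or more blocks, which also cross junctions, had 24.4% and 24.2% near the start. The 5′ edge fell exactly on the annotated start for 18 and 14 peaks, such as that of RPS2 in both replicates. Few 2-block peaks reached the other end: 1.20% and 1.53% had their 3′ edge within 200 nt of the gene end, beside 4.75% and 5.05% of all peaks. A 2-block peak cannot lie wholly inside a last exon, so this lower share is in part set by the rule. How far the rule also moves the share near the start was not tested.

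Peaks near the start had the longer introns and the higher folds. Their median intron was 2046 nt in replicate 1 and 2563 nt in replicate 2, against 912 and 1026 nt elsewhere. Their median fold was 5.01 and 4.16, against 2.81 and 2.37 elsewhere. The 163 pairs near the start in both replicates had median folds of 5.29 and 4.43 with a median intron of 1785 nt, and the 186 pairs near it in neither had 2.59 and 2.74 with 667 nt. Peaks of 1 block were also stronger near the start (6.17 and 5.29 against 4.23 and 3.56), so the higher fold there was not particular to peaks that cross a junction.

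The fold was also higher at the longest introns. In replicate 1 the median fold was 2.85 for the 62 peaks with introns up to 100 nt, 2.74 for the 236 above that and up to 500 nt, 3.25 for the next 264, up to 2000 nt, 4.63 for the 109 over 10000 and up to 50000 nt and 6.31 for the 30 above that. In replicate 2 it was 2.13 (70 peaks), 2.41 (262), 2.59 (340), 4.12 (130) and 5.17 (28). The share near the gene start also rose over the classes up to 50000 nt, from 21.0% to 63.3% in replicate 1 and from 17.1% to 53.8% in replicate 2. Above 50000 nt it fell to 50% in replicate 1, where the fold still rose, and it was 75% in replicate 2. Elsewhere in the gene the median rose over every class in replicate 1. In replicate 2 it did so but for the class over 500 and up to 2000 nt (2.225). Introns over 100 and up to 500 nt had 2.48 (166 peaks) and 2.24 (210) there, and introns over 10000 and up to 50000 nt 4.55 (40) and 2.89 (60). Those above 50000 nt had 5.63 (15) and 4 (7). Near the start the order was not kept: introns up to 100 nt had 5.51 (13) and 4.52 (12), and those over 100 and up to 500 nt 4.52 (68) and 3.48 (52). Over all 2-block peaks, which share a library, Spearman's rank correlation of intron length with fold was 0.209 and 0.235. Elsewhere it was 0.174 and 0.159, and near the start 0.0919 and 0.202. The interquartile ranges of neighbouring classes overlapped in both replicates.

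**Figure D3:**
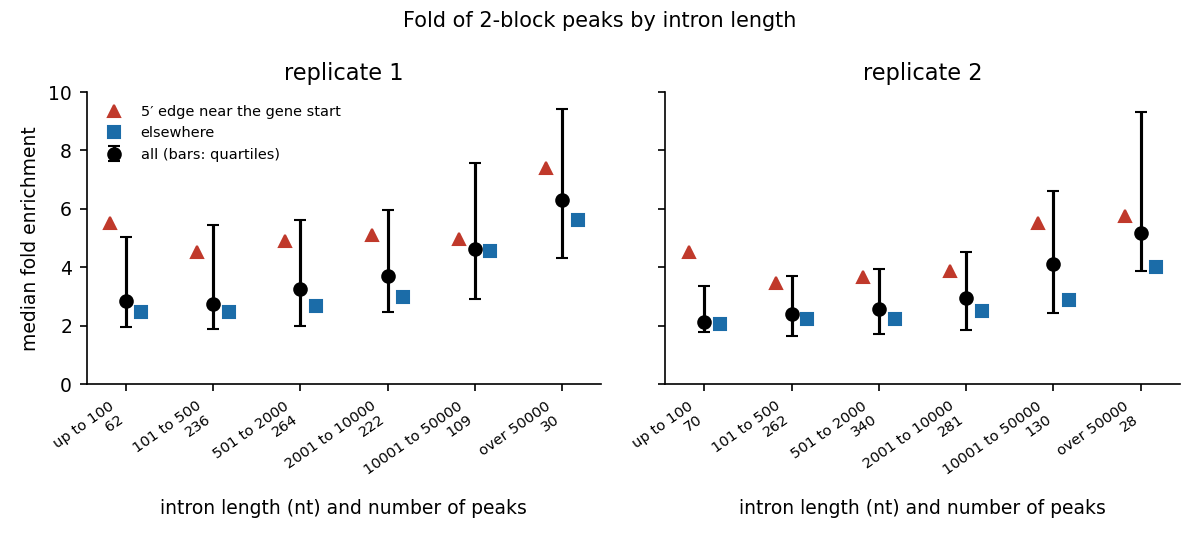
Median fold enrichment of 2-block peaks (y axis) by intron length class (x axis, nt, with the number of peaks) in each IP replicate; black points with bars are all peaks with their quartiles, red triangles peaks with the 5′ edge within 200 nt of the gene start, and blue squares peaks elsewhere. The medians of all peaks run from 2.85, with 2.74 in the second class, to 6.31 in replicate 1 and from 2.13 to 5.17 in replicate 2, and in every class the triangles lie above the squares.

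Against peaks of other block numbers, 2-block peaks had folds below those of 1-block peaks and above those of peaks with 3 or more blocks. Their median was 3.47 (quartiles 2.14 and 5.92) in replicate 1 and 2.78 (quartiles 1.78 and 4.43) in replicate 2, against 4.63 and 3.94 for 1 block and 2.78 and 2.41 for 3 or more. The difference of the median log2 folds between 2 blocks and 1 block was -0.42 and -0.50, a mean of -0.46 ± 0.06 (SD, n = 2). A fold of at least 4 was reached by 44.0% and 30.1% of 2-block peaks, beside 53.6% and 42.1% of all peaks. The median summed block length was 150 nt for 1-block peaks and 1 nt more for 2-block peaks in both replicates. In each of 5 classes of summed length the median fold of 2-block peaks was below that of 1-block peaks, for example 2.63 against 3.83 up to 100 nt and 5.55 against 6.52 over 300 nt in replicate 1, and 2.19 against 3.26 and 4.50 against 5.67 in replicate 2.

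**Figure D4:**
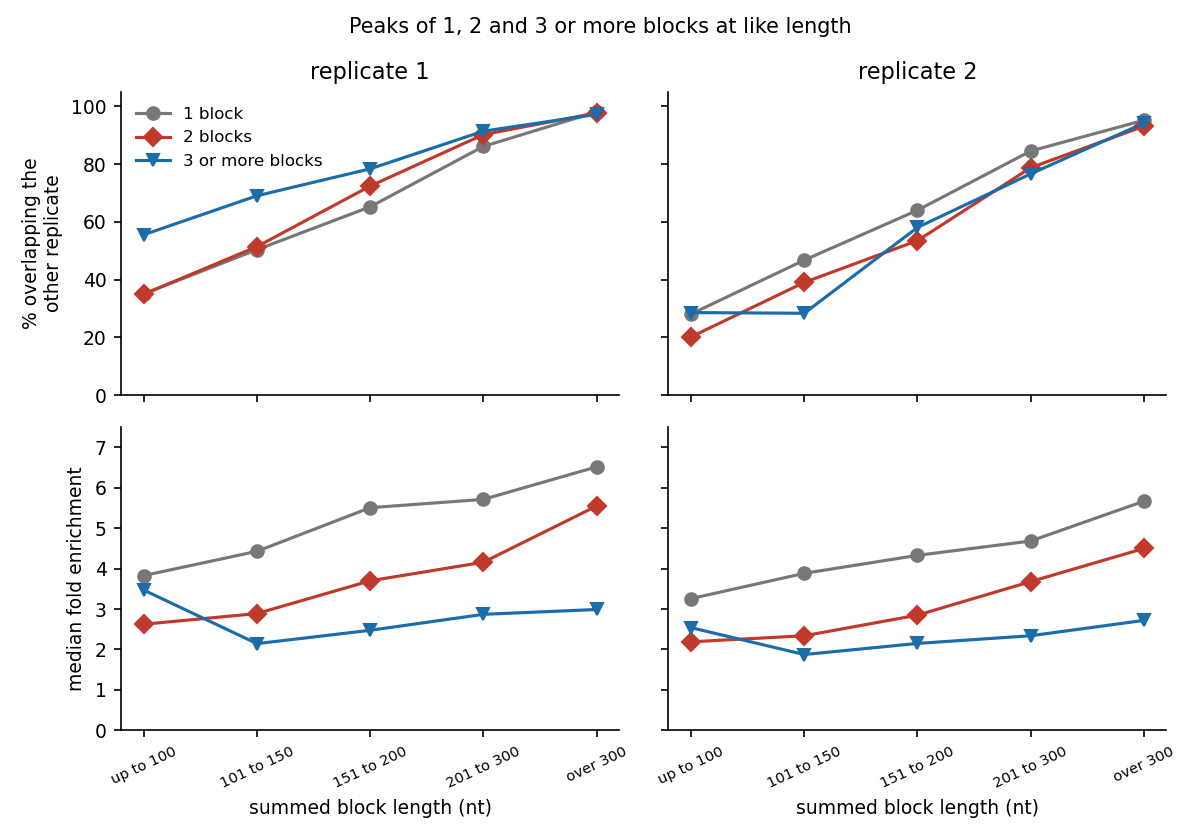
Share of peaks overlapping the other replicate (upper panels, %) and median fold enrichment (lower panels) by summed block length (x axis, nt) for peaks of 1 block (grey circles), 2 blocks (red diamonds) and 3 or more blocks (blue triangles) in each IP replicate. The share overlapping climbs with length in each class, apart from a near-equal start at 28.6% and 28.3% for 3 or more blocks in replicate 2, and the median fold of 2 blocks stays below that of 1 block in every length class.

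The junction tended to lie toward the 3′ side of the peak. The 5′ block held a median of 61.7% of the summed length in replicate 1 and 58.2% in replicate 2, with an SD of 2.42 percentage points between replicates (n = 2), and it was the longer block in 61.2% and 57.0% of peaks. Near the gene start the 5′ block held 75.5% and 74.2%. Elsewhere it held 50.4% and 49.2%, so there the junction showed no side. The most even blocks were those of TCEB2, which encodes elongin B (30 and 31 nt in replicate 1, 1.47 and 1.66-fold), of NME2, a nucleoside diphosphate kinase (98 and 108 nt, 1.28 and 1.31), and of HYOU1. The span of NME1-NME2 also covers the NME2 peak. At the other extreme, the peaks of RBM42, an RNA-binding protein (3.13 and 3.38), PA2G4, a regulator of growth and ribosome assembly (3 and 3.33), and CLSPN, which encodes the checkpoint adaptor claspin (2.29 and 3.23), reached 1 nt past the junction in both replicates. A shorter block under 10 nt was present in 15.5% and 13.4% of peaks, and both blocks measured at least 30 nt in 56.4% and 58.8%. Summed lengths were a multiple of 30 nt, or 1 more, in 76.3% of 2-block peaks in both replicates, so peak edges follow a grid, and an edge block of a few nucleotides is shorter than its step.

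**Figure D5:**
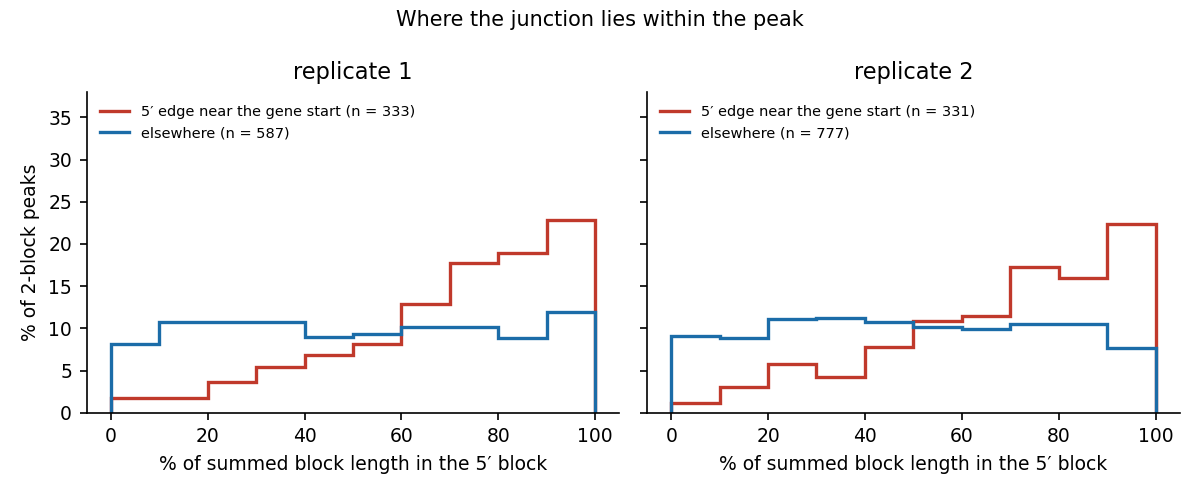
Share of 2-block peaks (y axis, %) by the part of the summed block length that lies in the 5′ block (x axis, %, in steps of 10) in each IP replicate, for peaks with the 5′ edge within 200 nt of the gene start (red; 333 and 331 peaks) and elsewhere (blue; 587 and 777). The red line climbs toward 100%, with medians of 75.5% and 74.2%, and the blue line is nearly flat.

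Several genes had more than 1 recurrent junction. C11orf95, now named ZFTA and known from gene fusions in ependymoma, had 3, with folds of 15.9 and 12.5 across a 552-nt intron, 12.8 and 7.56 across 168 nt, and 8.77 and 5.00 across 2179 nt. TNRC18, a chromatin reader, had 2, at 9.87 and 9.56 at 288 nt from its start and 3.37 and 2.54 farther along. HNRNPU, a nuclear scaffold protein that binds RNA, had 7.91 and 9.01 at 138 and 78 nt from the start, but 1.34 and 1.56 at the other junction. SYMPK, the polyadenylation scaffold symplekin, did not have the higher folds near the start: 6.34 and 4.33 there, and 6.42 and 12.2 at 47283 nt. MZT2B, a part of gamma-tubulin ring complexes, had 5.65 and 7.5 and, across a 7693-nt intron, 1.65 and 1.28; it has a near-identical copy, so its values are uncertain. In all, 12 genes had at least 2 such introns.

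The gene groups below were read for how many of their members had a 2-block peak with the identical intron in both replicates. Over all 2334 protein-coding genes with a peak in both replicates, 345 had this (14.8%), and 416 had some 2-block peak in each (17.8%). The groups come from lists of housekeeping mRNAs and of a matrix and osteoblast lineage, chosen with earlier results of these data known, the tables hold no expression values, and no test was made of them. Chaperones had 7 of 17 members with a peak in both replicates (41.2%). They were led by HSP90B1, the HSP90 of the endoplasmic reticulum, with 6.58 and 6.30, followed by HYOU1, an ER chaperone of the HSP110 family (2.51 and 2.54), and PTGES3, the HSP90 co-chaperone p23 (2.11 and 1.92). The ubiquitin and proteasome group had 5 of 13 (38.5%). Its highest were UBE2S, the chain-extending enzyme of the anaphase-promoting complex (3.50 and 4.43), USP9X, a deubiquitinase (2.56 and 4.42), and UBE2D2, a ubiquitin-conjugating enzyme (2.74 and 2.44).

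Translation factors had 6 of 19 (31.6%), with EIF3B, a core subunit of eIF3, at 3.74 and 3.47, EEF1G, and ETF1, the release factor eRF1, at 3.49 and 2.45. Splicing factors had 6 of 27 (22.2%). HNRNPD, the AU-rich element binder AUF1, had 9.74 and 10.3 across a 13806-nt intron, HNRNPU is given above, and SRRM2, a scaffold of nuclear speckles, had 10.3 and 5.18. The actin cytoskeleton had 7 of 28 (25%), with the integrin linker TLN1 at 6.33 and 7.5, CAPZB, which caps actin filaments, at 12.3 and 4.55 across 65685 nt, and ACTR2, a subunit of Arp2/3, at 4.35 and 6.92. Ribosomal proteins had 6 of 31 (19.4%), with RPS2 at 5.31 and 5.64, RPL35 at 1.89 and 1.82 and RPL36 at 1.77 and 2.09, and reads of these genes can also match their processed copies. Matrix and osteoblast genes had 7 of 26 (26.9%). COL3A1, the highest on that list, had 2.53 and 2.83, COL5A2 2.43 and 2.21, and AGRN, which encodes agrin, 2.37 and 1.84. COL27A1, a fibrillar collagen that is not on the list and was picked after its values were seen, had 10.1 and 15. The median lower fold was 1.58 over the 8 matrix pairs, 1.62 over the 7 ribosomal pairs and 3.67 over the 7 splicing factor pairs, against 3.25 over all 358 pairs.

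Genes without introns would be a check only if gaps were read from the reads, which was not established. If gaps were taken from annotated exons, such genes could not yield 2 blocks, so no conclusion is drawn from their count. Of the 35 listed genes, 18 and 16 had a peak, such as JUN and POU3F3, and they carried 37 peaks in replicate 1 and 36 in replicate 2, and 0 of these had 2 blocks. Markers of blood cells had no peak of any kind on 17 genes in either table. Peaks fell on 3194 and 3480 protein-coding genes in all, and expression is unknown, so an absence on 17 genes says little. Of 17 epithelial markers 2 and 3 had a peak, and KRT14 had a 2-block peak, in replicate 2 alone (2.69-fold). Beside this, 837 of the 3194 and 1003 of the 3480 protein-coding genes with a peak had a 2-block peak. KRT17, a keratin that is not on that list and was picked after its values were seen, had the identical intron in both replicates (1.45 and 1.42). TEAD2, a DNA-binding partner of YAP1, had 24.7 and 6.05 across a 2247-nt intron (chr19:49360082-49362328), with its 5′ edge 11 nt before the annotated start in replicate 1 and 19 nt inside it in replicate 2, and the span of DKKL1 also covers that peak. YAP1, CCND1, G3BP1 and QKI had peaks in both replicates but none of 2 blocks, and no peak was listed for METTL1 or WDR4, which together place m7G on tRNA.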

How the data were processed

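Only the 2 IP samples have tables here, and the input samples enter through the authors' peak calls. STAR and GRCh38 are listed, per the submitters' processing notes, with no version. The sources used here do not name the peak caller. Per the file headers, the deposited tables give each peak's blocks, a p-value, log10 p and log10 of a false discovery rate (both handled as scores), and the authors' enrichment over input, a linear fold or ratio of unknown scaling. False discovery rates reached 0.0490 and 0.0479 in the 2 tables.

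Peaks with 2 blocks were selected and the gap between blocks was taken as the intron. Coordinates were read as BED (start from 0), which the GT and AG positions bear out, and are printed from 1. Mutually best overlaps on the same strand, by shared block bases, made pairs. Names were looked up in RefSeq genes of GRCh38.p14 lying within 2000 nt (881 and 1055 2-block peaks by symbol, 39 and 53 by synonym, 3 and 3 unmatched). A genome and transcript models were not used here, so exon ranks and untranslated regions are not given.

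Genes were named by rule: the 10 highest pairs, the 5 longest and shortest introns, up to 3 per list, the 5 genes with most introns, the 3 largest replicate differences, the 3 most and least even pairs, the 3 highest folds of each replicate alone, introns not beginning with GT, and fixed names. Other genes named were picked after their values were seen, for a sequence, a position, a length or as an example. The set and the lists were chosen with earlier results of these data known. The overlap and gap code was tested on simulated data. Alternatives changed the overlap rule, significance, length matching, start window and short blocks. Scripts ran under Python 3.11.15 with pandas 2.3.3, numpy 2.4.6 and scipy 1.17.1, and figures were drawn with matplotlib 3.10.9.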

Additional observations from a re-analysis of the deposited data

How the results depend on the processing

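No paired analysis was possible because the input samples have no table here and the 2 IP tables belong to a single group. With either replicate left out, values ran from 21.3% to 22.9% for the share of peaks with 2 blocks, 1158 to 1303 nt for the median intron, 49.8% to 65.9% for the share overlapping the other replicate, -0.50 to -0.42 for the log2 difference from 1-block peaks, 29.9% to 36.2% for the share near the gene start and 58.2% to 61.7% for the length in the 5′ block. The shares of identical introns and the differences between replicates need both tables, so leaving out a replicate gave no value. Of 53 alternative values 43 moved by less than the spread between replicates or the limits set for them. Some of the 43 could not have moved farther. With 2 replicates, the value of either alone always lies within their SD of the mean. Requiring gaps of at least 50 nt, or counting each position once, removed no 2-block peak. The count of 43 is therefore no measure of robustness. With 50% reciprocal overlap the shared part of 2-block peaks was 45.9%. In the more significant part of each table the log2 difference from 1-block peaks was -0.58, the share near the start 41.9% and the length in the 5′ block 65.2%. Within classes of summed length the log2 difference was -0.54, and against peaks of 3 or more blocks it was 0.26, the other direction by the choice of comparison. The share near the start was 20.3% within 50 nt, 38.9% within 500 nt and 22.1% from the midpoint of the joined blocks. Leaving out 2-block peaks with a block under 10 nt, an alternative chosen after seeing the data, gave 19.5% of peaks with 2 blocks. The identical-intron share stayed between 96.3% and 98.2% in the alternatives run. Depth is unknown, so no error can be set on the fold of a single peak.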

Other observations

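Of the 2-block peaks that overlapped nothing in the other replicate, the highest folds in each replicate are given here with their log10 p, whose median over all 2-block peaks was -5.93 in replicate 1 and -5.80 in replicate 2. In replicate 1 they were JAKMIP1, KRT83, a hair keratin, and BTBD6, each at 55.5 with log10 p of -3.37. In replicate 2 they were ARHGEF10 at 60 (log10 p of -5.54), CELF2, an RNA-binding splicing regulator, at 40 (-3.57), and GTF2H2C_2 at 25 (-4.04), which has near-identical copies, so its value is uncertain. All but GTF2H2C_2 sat at a whole multiple of the repeated fold value of their table.

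Other microRNA hosts had their junction as a gap in a single replicate, whatever the number of blocks. In replicate 1 they were TMEM164 with MIR652 in a 64574-nt intron (23.1-fold), LIFR, the leukaemia inhibitory factor receptor, with MIR3650 (6.44), BID, a proapoptotic BCL2-family protein, with MIR3198-1 (5.00), RTN4R, the Nogo receptor, with MIR1286 (2.36) and WDR1, an actin disassembly factor, with MIR3138 (1.63). In replicate 2 they were RXRA, the retinoid X receptor alpha, with MIR4669 in a 74972-nt intron (11.1), GNAI2, a G protein subunit, with MIR5787 (6) and APOLD1 with MIR613 (5.00).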
